A study of Mus musculus with 8 samples.

Results

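The ectodysplasin pathway was followed through 7 genes of the RNA-seq table, taken by gene name from its 23358 rows: the ligand gene *Eda*, the receptor genes *Edar*, *Eda2r* and *Tnfrsf19*, the adaptor gene *Edaradd*, the signal transducer gene *Traf6* and the inhibitor gene *Nfkbia*. All 7 were found in the table, and their values were read in all 8 libraries. The tissue came from the base of the mouse incisor, the cervical loop (CL), and was dissected at 4 weeks of age into a head region that holds the dental epithelial stem cells (CLH) and a tail region that holds their progenies (CLT). The *Med1* cKO mice were MED1 fl/fl animals of strain C57BL/6 whose epithelial cells lose exons 8 to 10 of *Med1* through Cre driven by the *Krt14* promoter, and the Ctrl mice were littermates without Cre. *Krt14* is active in basal cells of skin and oral epithelium as well as in dental epithelium, so the deletion was not limited to the tooth. The 4 groups held 2 libraries each (Ctrl CLH, cKO CLH, Ctrl CLT and cKO CLT), each made from pooled tissue, from 2 litters and 6 CL tissues per group. Libraries are numbered by the replicate in their titles, and p-values measure the spread between such pools.

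Ectodysplasin, the product of *Eda*, is a ligand of the tumor necrosis factor (TNF) family that is cut from the cell surface by the protease furin. One splice form binds the receptor EDAR and another binds EDA2R. EDAR recruits the adaptor EDARADD, the signal passes through TRAF proteins and the IKK kinases, and the inhibitor IκBα, encoded by *Nfkbia*, is degraded so that NF-κB enters the nucleus. *Nfkbia* is itself transcribed by NF-κB. The pathway is needed for the placodes from which hair, teeth and sweat glands form, and its loss causes sparse hair and missing or misshapen teeth. TNFRSF19 (TROY) is a related receptor, found in hair follicles and in several stem cell populations, that does not bind the ligand of EDAR.

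Promoter sequences of all 7 genes were read from RefSeq (GRCm38.p6), as the 250 bases before each gene's start, and searched on both strands for the NF-κB binding consensus and for TATAAA. Those of 3 genes are shown: *Nfkbia*, the NF-κB target of the set, *Eda2r*, the member with the largest fold difference in CLT, and *Edaradd*, the member whose cKO effect passed the test of difference between CLT and CLH. Each is printed 5′ to 3′ on the strand of the gene, with letters that match a searched motif in capitals.
Nfkbia (chr12:55492648-55492897, minus strand): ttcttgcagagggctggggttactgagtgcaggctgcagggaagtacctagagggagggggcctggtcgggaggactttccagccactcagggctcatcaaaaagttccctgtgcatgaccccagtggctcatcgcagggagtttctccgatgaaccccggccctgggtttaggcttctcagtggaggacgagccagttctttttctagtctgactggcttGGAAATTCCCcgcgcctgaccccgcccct
Eda2r (chrX:97377210-97377459, minus strand): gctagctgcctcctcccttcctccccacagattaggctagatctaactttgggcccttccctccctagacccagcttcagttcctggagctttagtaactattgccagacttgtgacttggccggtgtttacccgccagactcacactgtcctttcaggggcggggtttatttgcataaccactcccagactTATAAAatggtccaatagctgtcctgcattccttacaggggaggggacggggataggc
Edaradd (chr13:12520451-12520700, minus strand): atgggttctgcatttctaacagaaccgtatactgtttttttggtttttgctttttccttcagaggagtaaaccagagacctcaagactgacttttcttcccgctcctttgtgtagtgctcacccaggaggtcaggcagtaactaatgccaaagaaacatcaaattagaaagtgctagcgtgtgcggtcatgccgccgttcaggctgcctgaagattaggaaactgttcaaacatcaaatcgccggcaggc

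The *Nfkbia* promoter held 1 match, GGAAATTCCC, from 29 to 20 bases before the start, which fits the NF-κB consensus when read on the other strand. Of 32851 RefSeq promoters of this length, 7.25% held that consensus. The *Eda2r* promoter held TATAAA from 58 to 53 bases before the start, as 12.4% of all promoters did at some position. *Edaradd* held neither motif in this window, nor did *Eda*, *Edar*, *Tnfrsf19* or *Traf6*. A match describes the letters only and no binding was measured here.

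Library totals ran from 26591613 to 34420180 reads, and 82.2% to 85.6% of them lay on genes. *Med1* was read first as a check of the labels. Its RPKM (reads per kilobase of gene, scaled to the total of the library) was 7.71 and 9.12 (Ctrl) and 7.10 and 7.03 (cKO) in CLH, but 4.83 and 8.71 (Ctrl) and 9.15 and 8.96 (cKO) in CLT. *Med1* was thus not lower in CLT in the libraries labelled cKO, and the gene-level value counts the exons that remain as well as those that are deleted. Directions below therefore compare libraries by their labels. The 2 Ctrl CLT libraries stood apart from each other. Over the tested genes, 34.6% differed by more than 1.5-fold between them, against 0.750% to 1.12% within the other groups.

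Marker genes moved with the same libraries. The summed RPKM of 6 hair genes, all 6 of them higher in both cKO CLT libraries than in either Ctrl CLT library, was 2.65 to 3.48 in the 4 CLH libraries, 1515 in Ctrl CLT 1, 4.62 in Ctrl CLT 2, and 4583 and 5117 in the libraries labelled cKO CLT. Sums of 4 cornified epidermis, 5 melanocyte and 4 skeletal muscle genes were likewise high in both cKO CLT libraries, lower in Ctrl CLT 1 and far lower in Ctrl CLT 2, as the plot of marker sums shows. In CLT the sum of 6 ameloblast genes was 84432 and 37295 with Ctrl labels and 19.4 and 15.5 with cKO labels. The RPKM of *Krt14*, a keratin gene of basal epithelium, was 178 to 242 in the 4 CLH libraries, and 543 and 275 (Ctrl) and 558 and 649 (cKO) in CLT. The labels name the samples dental epithelial cells, but *Col1a1*, a collagen gene of mesenchyme, had an RPKM of 376 to 1865 in every library, and leukocyte and endothelial markers were detected in all 8. The part of these cell types in the values of the pathway genes was not tested, and in bulk tissue fewer cells of a type and less RNA per cell cannot be told apart.

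**Figure D1:**
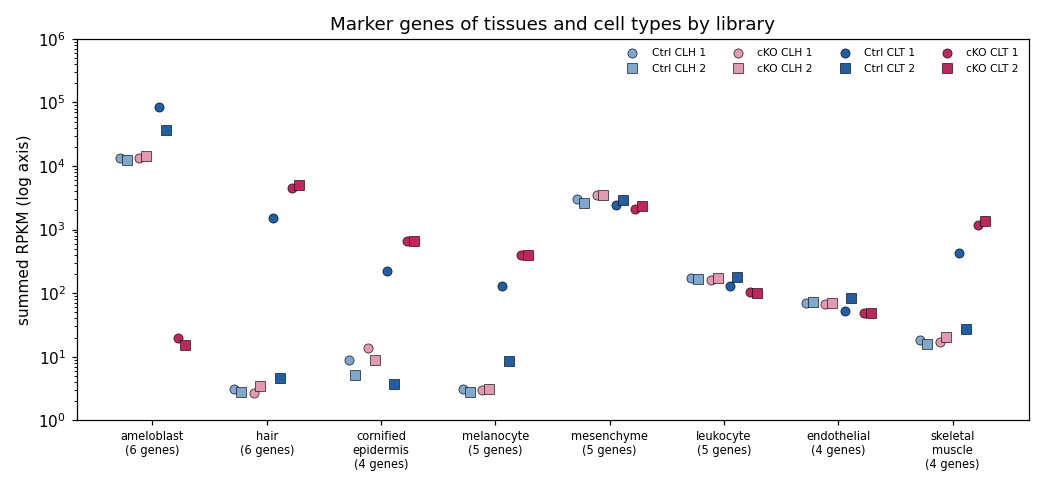
Summed RPKM of marker gene lists on a log axis, 1 point per library (circles replicate 1, squares replicate 2, colours the 4 groups). The hair sum is 1515 (Ctrl CLT 1) and 4.62 (Ctrl CLT 2) beside 4583 and 5117 for cKO CLT, while the ameloblast sum is at 84432 and 37295 in Ctrl CLT against 19.4 and 15.5 in cKO CLT.

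Levels of the 7 genes, compared per length on the RPKM scale, spanned from *Eda2r*, with a median of 0.300 over the 8 libraries, to *Tnfrsf19*, with a median of 38.3. *Edar* (1.24), *Eda* (2.56) and *Edaradd* (2.70) had low medians, *Traf6* had 6.99 and *Nfkbia* had 25.7. The ligand, its receptors and the adaptor of EDAR were thus the low members, and *Tnfrsf19* had a higher mean level than 91.5% of the genes in the table. *Eda2r* rested on 22 to 102 reads per library, reached an RPKM of 1 in no library and failed the filter on low values, so the counts of called members below cover the other 6. Its values and its test without that filter are given separately.

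**Figure D2:**
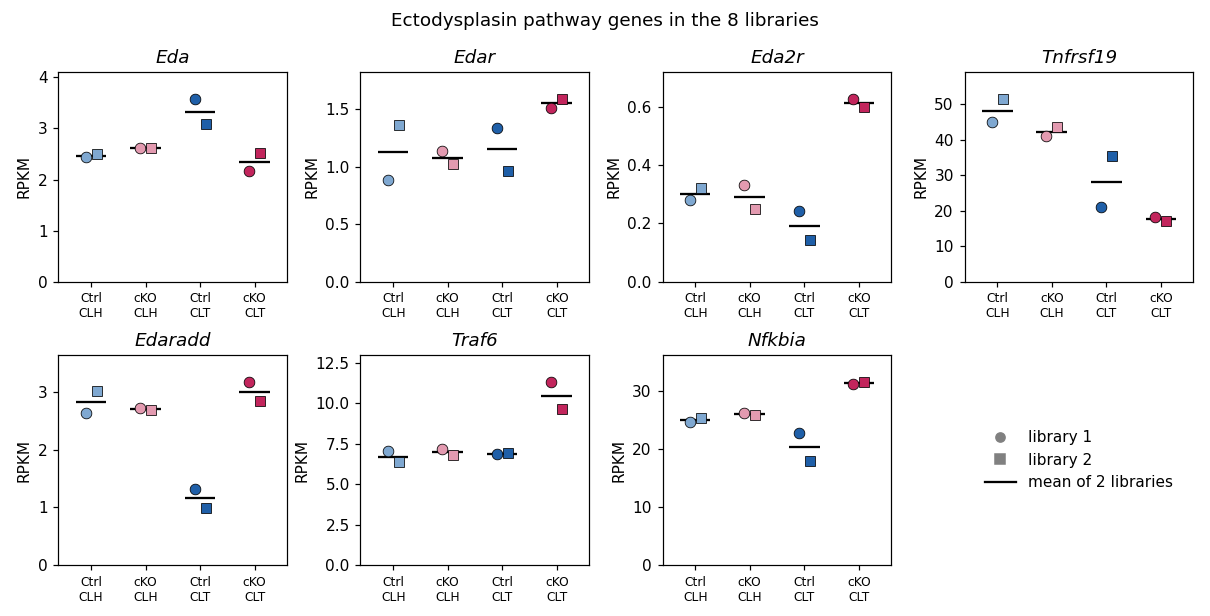
RPKM of each of the 7 genes in the 8 libraries (circles replicate 1, squares replicate 2, lines the mean of 2 libraries, each axis from 0). *Edaradd* lies at 1.32 and 0.998 in Ctrl CLT and between 2.65 and 3.17 in the other 6 libraries, and *Tnfrsf19* lies at 41.0 to 51.4 in CLH and 17.2 to 35.5 in CLT.

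The first comparison asked how the pathway differed between *Med1* cKO and Ctrl in CLT, whose epithelium normally makes enamel. In CLT, *Edar*, *Eda2r*, *Edaradd*, *Traf6* and *Nfkbia* were higher in both cKO-labelled libraries than in either Ctrl library, and *Eda* and *Tnfrsf19* were lower in both. Genes are named called where they passed an adjusted p (Benjamini-Hochberg) of 0.05. No member was called by limma, which called 1.75% of all genes tested (0.0777% as higher and 1.68% as lower). Of the 6 members tested, 3 had an unadjusted p under 0.05, against 36.2% of all genes. Voom, a model of the read counts recovered from the RPKM, called 0 of 6, beside 0.127% of all genes. Separation of the groups was common: 72.2% of all genes tested did not overlap, 37.2% being higher and 35.1% lower. The median log2 fold change of the 6 tested members was 0.39, beside -0.01 over all genes tested. With 2 libraries per group, the smallest p of an exact permutation test is 0.333, so single genes were judged by the limma fit across all genes.

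*Eda* lies on chromosome X (99975606 to 100400760, mm10) on the plus strand, and *Mir676* lies within it without sharing exon bases. Its RPKM was 2.43 and 2.50 (Ctrl) and 2.63 and 2.61 (cKO) in CLH, and 3.57 and 3.09 (Ctrl) and 2.16 and 2.51 (cKO) in CLT. Both Ctrl CLT libraries were above all others, and the cKO CLT values spanned those of Ctrl CLH. In CLT the mean of the libraries labelled cKO, 2.34 ± 0.245 (SD, n = 2), was 1.43-fold below that of Ctrl, 3.33 ± 0.340 (n = 2), or -0.38 ± 0.19 as a log2 fold change with its SE (adjusted p = 0.219, limma on log2(RPKM + 1)). Values after ± are SEs wherever a log2 fold change is given below. The table gives 1 value per gene, so the splice forms that bind EDAR and EDA2R could not be separated.

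*Edar*, which encodes the receptor of the main pathway (chromosome 10, 58600788 to 58675696, minus strand), had an RPKM of 0.884 and 1.36 (Ctrl) and 1.14 and 1.02 (cKO) in CLH, and of 1.34 and 0.961 (Ctrl) and 1.51 and 1.58 (cKO) in CLT. Both cKO CLT libraries were above the other 6, which overlapped one another. Each value rested on 94 to 159 reads. The means in CLT differed by 1.35-fold (0.25 ± 0.20, adjusted p = 0.392). The log2 fold change was 0.38 without Ctrl CLT 1, 0.12 without Ctrl CLT 2, 0.27 without cKO CLT 1 and 0.23 without cKO CLT 2.

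*Eda2r*, the receptor gene for the other splice form (chromosome X, 97333841 to 97377209, minus strand), had an RPKM of 0.280 and 0.320 (Ctrl) and 0.331 and 0.250 (cKO) in CLH, and of 0.241 and 0.142 (Ctrl) and 0.625 and 0.599 (cKO) in CLT. The cKO CLT libraries held 102 and 95 reads of the gene and the other 6 held 22 to 65. The mean was 3.20-fold higher in cKO CLT than in Ctrl CLT, the largest fold of the 7 members in that comparison. Without the filter on low values, its log2 fold change was 0.44 (SE 0.059, adjusted p = 0.0924), and this scale understates the change of a gene below an RPKM of 1. With voom and a filter at an RPKM of 0.1, an alternative added after the data had been seen, the log2 fold change was 1.70 (adjusted p = 0.107).

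*Tnfrsf19* (chromosome 14, 60963834 to 61046855, minus strand) had an RPKM of 45.0 and 51.4 (Ctrl) and 41.0 and 43.6 (cKO) in CLH, and of 21.01 and 35.5 (Ctrl) and 18.1 and 17.2 (cKO) in CLT. The groups were ordered Ctrl CLH, cKO CLH, Ctrl CLT and cKO CLT from high to low, with no overlap between neighbours. Ctrl CLT 1, the Ctrl CLT library with hair markers, was the nearer of the pair to the cKO CLT level. In CLT it was lower in the libraries labelled cKO (-0.60 ± 0.29, adjusted p = 0.212). This was -0.97 without Ctrl CLT 1, -0.24 without Ctrl CLT 2, -0.64 without cKO CLT 1 and -0.57 without cKO CLT 2. In these fits of 3 libraries the lone library of a group is assumed to vary like the other pair.

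*Edaradd*, the adaptor gene (chromosome 13, 12471209 to 12520450, minus strand), had an RPKM of 2.65 and 3.02 (Ctrl) and 2.72 and 2.69 (cKO) in CLH, and of 1.32 and 0.998 (Ctrl) and 3.17 and 2.85 (cKO) in CLT. Ctrl CLT was the group apart, below all other libraries, while the cKO CLT values overlapped those of Ctrl CLH. The means were 3.01 ± 0.229 in cKO CLT and 1.16 ± 0.228 in Ctrl CLT (SD, n = 2 each), a 2.59-fold difference, and rested on 215 to 744 reads per library. The log2 fold change of 0.90 (SE 0.19) had an adjusted p of 0.0773, and it exceeded in size that of 74.1% of the genes tested. It was 1.003 without Ctrl CLT 1, 0.79 without Ctrl CLT 2, 0.84 without cKO CLT 1 and 0.95 without cKO CLT 2.

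*Traf6*, which encodes a ubiquitin ligase that passes receptor signals to the IKK kinases (chromosome 2, 101678440 to 101700974, plus strand), had an RPKM of 7.02 and 6.38 (Ctrl) and 7.20 and 6.82 (cKO) in CLH, and of 6.84 and 6.95 (Ctrl) and 11.3 and 9.64 (cKO) in CLT. The other 3 groups overlapped one another at an RPKM of up to 7.20, and cKO CLT stood above them. The mean was 1.52-fold higher in cKO CLT than in Ctrl CLT (0.53 ± 0.17 on the log2 scale, adjusted p = 0.112).

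*Nfkbia* (chromosome 12, 55489409 to 55492647, minus strand), whose promoter is printed above, had an RPKM of 24.7 and 25.4 (Ctrl) and 26.3 and 25.9 (cKO) in CLH, and of 22.9 and 18.1 (Ctrl) and 31.2 and 31.5 (cKO) in CLT. The order from high to low was cKO CLT, cKO CLH, Ctrl CLH and Ctrl CLT, with no overlap between neighbours. The mean was 1.53-fold higher in cKO CLT than in Ctrl CLT (0.60 ± 0.17 on the log2 scale, adjusted p = 0.103). *Nfkbia* and *Tnfrsf19* also belong to a published list of hair-related genes drawn up on these CLT libraries, so their values are not independent of that list.

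Calls in CLT depended on how the spread was estimated. When all 8 libraries shared 1 estimate, *Edaradd* (adjusted p = 0.00601), *Traf6* (0.0169) and *Nfkbia* (0.0119) passed, and that fit called 43.7% of all genes. Fits that left out a CLT library took the spread from the pair that remained. Without a Ctrl CLT library members passed, as did a larger share of all genes. Without a cKO CLT library no member passed, and a smaller share of all genes did.

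**Figure D3:**
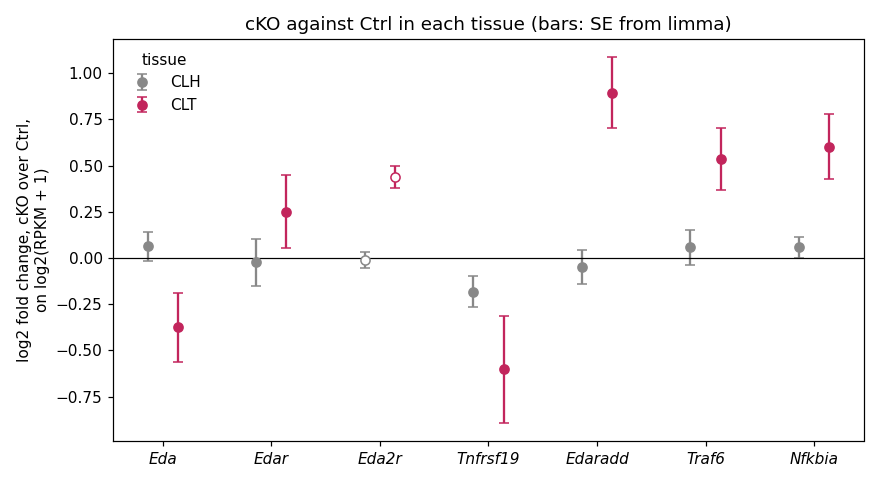
Log2 fold change of cKO over Ctrl on the log2(RPKM + 1) scale in CLH (grey) and CLT (red), with SE from limma as bars and open points for *Eda2r*, which failed the filter and is shown from the fit without it. In CLH the 7 values lie between -0.18 and 0.06, and in CLT they lie between -0.60 for *Tnfrsf19* and 0.90 for *Edaradd*.

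In CLH, the tissue that holds the stem cells, the same comparison gave small differences. Log2 fold changes of the members ran from -0.18 for *Tnfrsf19* (SE 0.085, adjusted p = 0.694) to 0.06 for *Eda*. No member was called and 0% of all genes tested were. None of the 6 tested members had an unadjusted p under 0.05, a level that 7.26% of all genes reached. Voom called none of them and 0% of all genes. *Eda* and *Nfkbia* were higher and *Tnfrsf19* was lower in both libraries labelled cKO, and 38.7% of all genes tested were separated in either direction.

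The difference between these cKO effects was tested by an interaction term with all 8 libraries. This fit shared 1 estimate of the spread per gene over the 4 groups, which were not alike in spread. The median absolute log2 difference between replicates was 0.404 in Ctrl CLT and 0.0922 to 0.113 in the other groups. *Edaradd* was called: its log2 fold change was 0.94 greater in CLT than in CLH (SE 0.20, adjusted p = 0.0296). It was the only 1 of the 6 tested members past the threshold, which 17.6% of all genes passed (8.05% with a greater and 9.58% with a smaller effect in CLT). *Nfkbia* (0.54 ± 0.17, adjusted p = 0.0731) and *Traf6* (0.48 ± 0.17, adjusted p = 0.0978) did not pass. For *Eda* the difference was -0.44 (SE 0.19, adjusted p = 0.14), for *Tnfrsf19* -0.42 (SE 0.32, adjusted p = 0.373) and for *Edar* 0.27 (SE 0.24, adjusted p = 0.433). The difference for *Tnfrsf19* was -0.79 (adjusted p = 0.00117) without Ctrl CLT 1 and -0.057 (adjusted p = 0.756) without Ctrl CLT 2, and that for *Edar* ran from 0.11 without Ctrl CLH 2 to 0.44 without Ctrl CLH 1. Without the filter on low values, *Eda2r* had a difference of 0.45 (SE 0.088, adjusted p = 0.0326), but with voom and a filter at an RPKM of 0.1 its adjusted p was 0.0662. The call of *Edaradd* was lost without any 1 of the 4 CLH or 2 cKO CLT libraries (differences from 0.87 to 1.01). It was kept without Ctrl CLT 1 (1.05) or Ctrl CLT 2 (0.83). Those fits took the spread from the other groups alone and called a larger share of all genes than the fit of all 8 libraries.

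A further comparison asked how the genes differ between the stem cell tissue and the tissue of the progenies in Ctrl mice. It shares the Ctrl CLT libraries with the comparison of genotypes in CLT. *Edaradd* was 2.44-fold lower in mean RPKM in Ctrl CLT than in Ctrl CLH (-0.83 ± 0.21 on the log2 scale, adjusted p = 0.329), and *Tnfrsf19* was 1.71-fold lower (-0.79 ± 0.29, adjusted p = 0.381). *Eda* was 1.35-fold higher (0.32 ± 0.18, adjusted p = 0.485), *Nfkbia* was lower by 1.22-fold (-0.29 ± 0.17, adjusted p = 0.491) and *Edar* (0.02) and *Traf6* (0.04) overlapped. *Eda2r* was 1.56-fold lower. No member was called, limma called 0.00707% of all genes, and 1 member (*Edaradd*) had an unadjusted p under 0.05, against 13.1% of all genes. Voom called 0 of the 6 and 0% of all genes. With the spread of all 8 libraries *Edaradd* passed (adjusted p = 0.0323), as 5.92% of all genes did, and without Ctrl CLT 2 *Eda*, *Edaradd* and *Tnfrsf19* passed (adjusted p = 0.0426, 0.0227 and 0.0123), beside 53.3% of all genes. The median over all genes was itself -0.13 in this comparison and became 0.01 with median-of-ratios scaling, under which *Edaradd* was at -0.72, *Tnfrsf19* at -0.63 and *Nfkbia* at -0.13.

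In the libraries labelled cKO, *Tnfrsf19* fell by 1.21 on the log2 scale from CLH to CLT (SE 0.085, adjusted p = 3.29e-06), a 2.40-fold lower mean. *Traf6* rose (0.51 ± 0.11, adjusted p = 0.00229), as did *Edar* (0.29 ± 0.10, adjusted p = 0.0283) and *Nfkbia* (0.26 ± 0.081, adjusted p = 0.0197). *Eda* (-0.12 ± 0.11, adjusted p = 0.332) and *Edaradd* (0.11 ± 0.10, adjusted p = 0.348) did not pass. *Eda2r* had a 2.11-fold higher mean in CLT, with an adjusted p of 0.00964 without the filter on low values. Calls were frequent in this comparison: 4 of 6 tested members were called, beside 74.0% of all genes (28.9% higher and 45.1% lower). The median over all genes was -0.18 and became 0.01 with median-of-ratios scaling, which moved the higher share of the calls from 39.01% to 51.5%. Under that scaling *Tnfrsf19* was at -1.01 and *Edaradd* passed at 0.27 (adjusted p = 0.0413). *Eda* turned from -0.12 to 0.03. *Traf6* and *Tnfrsf19* passed in every fit that left out 1 library, whereas *Edar* failed without cKO CLH 2 and without either cKO CLT library, and *Nfkbia* failed in all 4.

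Ratios within a library set the adaptor and the ligand against the receptor without a scaling between libraries. The RPKM of *Edaradd* per RPKM of *Edar* was 2.99 and 2.21 (Ctrl) and 2.40 and 2.63 (cKO) in CLH, and 0.987 and 1.04 (Ctrl) and 2.10 and 1.80 (cKO) in CLT. Adaptor and receptor were thus near equal per length in Ctrl CLT, and the adaptor exceeded the receptor in the other 6 libraries. The RPKM of *Eda* per RPKM of *Edar* was 2.75 and 1.83 (Ctrl) and 2.31 and 2.56 (cKO) in CLH, and 2.67 and 3.22 (Ctrl) and 1.43 and 1.58 (cKO) in CLT. This ratio was lowest in both cKO CLT libraries. These ratios describe transcripts and no test was run on them, and the low reads of *Edar* (94 to 159) carry their counting error into both.

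**Figure D4:**
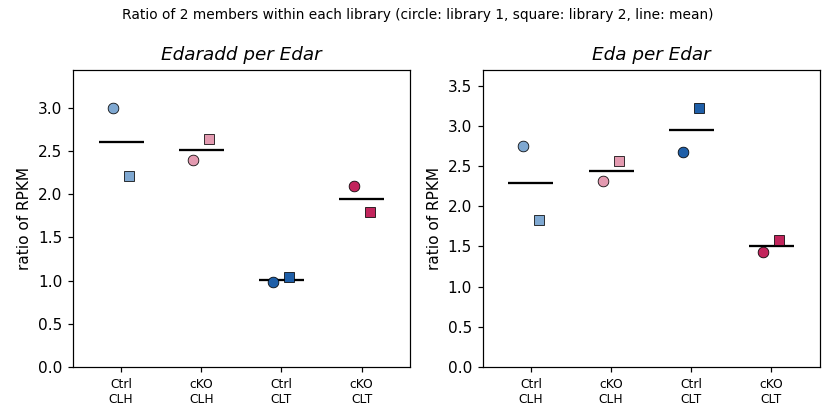
RPKM of *Edaradd* (left) and of *Eda* (right) per RPKM of *Edar* within each library (circles replicate 1, squares replicate 2, lines the mean of 2 libraries, axes from 0). The first ratio is 0.987 and 1.04 in Ctrl CLT and 1.80 to 2.99 elsewhere, and the second is 1.43 and 1.58 in cKO CLT and 1.83 to 3.22 elsewhere.

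Of the tested members, only *Tnfrsf19* had group means that spanned more than 1 on the scale of log2(RPKM + 1), by 1.40. The next was *Edaradd*, at 0.90 on this scale, which compresses the differences of low genes. Between cKO and Ctrl in CLT it was at 1.31 with a pseudocount of 0.1 and at 1.38 with voom. The genes with the most similar pattern over the 8 libraries, by the root mean square difference of centred log2(RPKM + 1), were *Ctgf* (0.037), *Wdr78* (0.044) and *Kirrel3* (0.067). *Ctgf*, which encodes a matricellular growth factor and is also in the list of placode genes below, had an RPKM of 41.0 and 48.6 (Ctrl) and 38.8 and 39.8 (cKO) in CLH, and of 20.3 and 31.4 (Ctrl) and 16.8 and 15.6 (cKO) in CLT. The 8 libraries stood in the same order as for *Tnfrsf19*.

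Other genes of the pathway were grouped into 4 lists. In CLT none of their tested genes passed an adjusted p of 0.05 in limma (1.75% of all genes did). Voom called none either, beside 0.127% of all genes. The signal relay (furin, TRAF proteins, the TAK1 kinase with its TAB partners, and the IKK kinases) had 12 genes tested, 7 higher and 5 lower in mean, with a median log2 fold change of 0.06. Its extremes were *Chuk*, an IKK subunit, at -0.18 and *Traf5* at 1.07 (SE 0.41, adjusted p = 0.151). *Traf5* was at 2.80 and 0.821 RPKM with Ctrl labels and 4.41 and 4.60 with cKO labels, so Ctrl CLT 1 stood between. For other genes, among them *Eda* and *Relt*, Ctrl CLT 1 was the Ctrl library farther from the cKO CLT level. *Furin*, the protease of the ligand, had overlapping groups (log2 fold change -0.14).

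Of 10 NF-κB subunits and inhibitors, 7 were higher and 3 lower in cKO CLT, with a median of 0.21, and 5 and 3 of them were separated without overlap, beside 37.2% and 35.1% of all genes. *Tnfaip3*, which encodes the feedback inhibitor A20, had 1.94 and 2.32 RPKM with Ctrl labels and 4.53 and 4.47 with cKO labels (0.82 ± 0.18 on the log2 scale, adjusted p = 0.0781). *Cyld*, another inhibitor of the signal, had 4.86 and 6.05 with Ctrl labels and 3.19 and 3.43 with cKO labels (-0.58 ± 0.19, adjusted p = 0.12). The 2 inhibitors thus lay in opposite directions, neither past the threshold.

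Of 16 genes known to act in placodes or downstream of the pathway, 11 were tested, and 9 of these were lower in both libraries labelled cKO CLT than in both labelled Ctrl CLT, beside 35.1% of all genes. The median log2 fold change of the 11 was -0.61. *Shh*, a placode signal, had 10.5 and 46.1 RPKM with Ctrl labels and 4.13 and 3.52 with cKO labels (-2.27 ± 0.73, adjusted p = 0.117). *Bmp4*, which encodes a growth factor, had 45.3 and 46.8 with Ctrl labels and 20.9 and 22.3 with cKO labels (-1.06 ± 0.14, adjusted p = 0.057). *Foxi3*, a transcription factor of placodes, was at 1.16 and 1.56 in Ctrl CLT and at 0 and 0.0912 in cKO CLT. *Fst*, an activin antagonist, was the gene with the highest value, at 13.0 and 9.32 with Ctrl labels and 15.9 and 14.6 with cKO labels (0.43 ± 0.21, adjusted p = 0.222). *Fgf20*, *Dkk4*, *Madcam1*, *Cxcl10* and *Cxcl11* failed the filter on low values. Of these, *Dkk4* was at most 0.0257 in the other 6 libraries and at 0.244 and 0.195 in cKO CLT, and *Cxcl10* reached 10.1 in Ctrl CLT 2 alone.

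Of 12 other TNF receptors, 11 were tested, 7 higher and 4 lower in mean, with a median of 0.16. *Tnfrsf1a*, the main TNF receptor, had 37.8 and 35.6 RPKM with Ctrl labels and 58.2 and 60.5 with cKO labels (0.68 ± 0.13, adjusted p = 0.0731). *Relt* had 36.9 and 11.4 with Ctrl labels and 1.33 and 1.77 with cKO labels (-3.09 ± 0.59, adjusted p = 0.0717). *Cd40* had 2.89 and 5.08 with Ctrl labels and 0.480 and 0.349 with cKO labels (-1.78 ± 0.29, adjusted p = 0.0637). With all 8 libraries in 1 fit, 2 relay genes, 4 NF-κB genes, 5 placode genes and 6 receptors passed, beside 43.7% of all genes. In fits without a Ctrl CLT library genes of all 4 lists passed, as did a larger share of all genes. Without a cKO CLT library no gene of the lists passed.

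**Figure D5:**
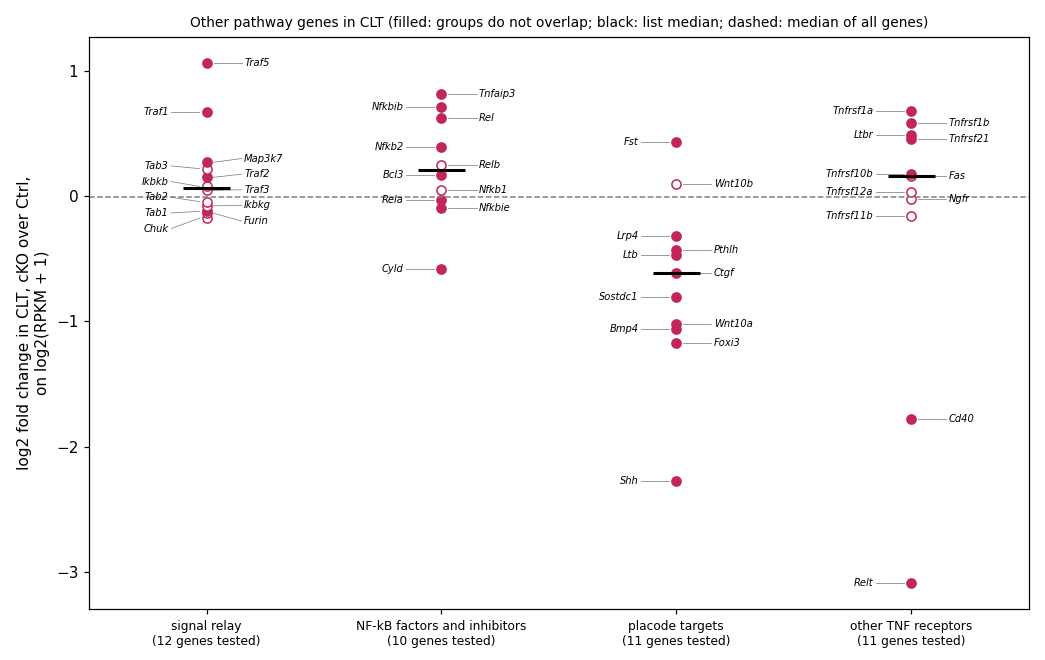
Log2 fold change of cKO over Ctrl in CLT on the log2(RPKM + 1) scale for the tested genes of the 4 lists (filled points, groups without overlap; open points, overlap; black bars, list medians; dashed line, median of all genes). The placode list has a median of -0.61 with *Shh* at -2.27, and the other 3 medians lie at 0.06, 0.21 and 0.16.

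The test of difference between CLT and CLH called 7 genes of the 4 lists, beside 17.6% of all genes. The cKO effect was greater in CLT for *Traf1* (0.87, adjusted p = 0.0384), *Tnfaip3* (0.86, adjusted p = 0.0313) and *Tnfrsf1a* (0.74, adjusted p = 0.022). It was smaller in CLT for *Foxi3* (-1.27, adjusted p = 0.017), *Bmp4* (-0.99, adjusted p = 0.0116), *Cd40* (-2.18, adjusted p = 0.0167) and *Relt* (-3.61, adjusted p = 0.0258). No gene of the lists was called when any 1 of Ctrl CLH 1, Ctrl CLH 2, cKO CLH 2, cKO CLT 1 or cKO CLT 2 was left out, and 1 placode gene was called without cKO CLH 1. These fits called 1.40% to 1.99% of all genes. Without Ctrl CLT 1, and likewise without Ctrl CLT 2, genes of all 4 lists were called, as was a larger share of all genes. In CLH no gene of the lists was called by limma or by voom, each of which called 0% of all genes.

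From CLH to CLT in the libraries labelled cKO, all 11 tested placode genes were called, 2 higher and 9 lower, beside 74.0% of all genes. *Shh* fell by 3.62, *Foxi3* by 2.66 and *Sostdc1*, an antagonist of BMP and WNT signals, by 1.59 on the log2 scale, while *Wnt10b* rose by 2.38 and was at an RPKM of 10.2 and 9.94 against 0.998 and 1.28. Of the relay, *Traf1* (0.68), *Traf5* (0.53) and *Tab3* (0.42) rose and *Tab1* (-0.51) fell. Of the NF-κB list 3 rose and 4 fell, among them *Tnfaip3* (0.74), *Rel* (0.50), *Nfkbie* (-0.45) and *Nfkb1* (-0.39). Of the receptors 4 rose and 4 fell, among them *Tnfrsf12a* (1.35), *Ngfr* (-1.34), *Cd40* (-2.59) and *Relt* (-2.55). In Ctrl no gene of the lists was called between CLT and CLH by limma or by voom, which called 0.00707% and 0% of all genes. With all 8 libraries in 1 fit, 2 placode genes and 1 receptor passed, beside 5.92% of all genes. *Wnt10b* had a log2 fold change of 2.41 in Ctrl.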

How the data were processed

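Total RNA from incisor cervical loop tissue was sequenced in 8 libraries, 2 in each of 4 groups that were taken from the sample titles. The authors trimmed paired reads of 50 bases, aligned them to mm10 with STAR (2.6.0b-1) and counted them per gene with featureCounts (1.6.3), and they name DESeq2 (2.11.40.2) for their own tests (versions per the submitters' processing notes). The deposited table holds RPKM for 23358 genes, with no columns of per-sample values left unused here. The annotation, the strand setting and the denominator of the RPKM are not given in the sources used here. The library kit does not mark strand. RPKM multiplied by gene length gave whole reads for 100% of values in every library within 0.01, and with them the totals of 26591613 to 34420180 reads.

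From these values log2(RPKM + 1) was taken, and limma 3.58.1 (R 4.3.3) was run with lmFit and trended eBayes over 14148 genes, those at 1 RPKM or more in 2 or more libraries, with Benjamini-Hochberg adjustment over all of them and a threshold of 0.05. Each comparison of 2 groups used its own 4 libraries, and the difference of effects used all 8. On this scale the differences of low genes are compressed. Voom on the recovered reads, other pseudocounts, scalings and filters, a replicate block and each library left out served as alternatives. The code was tested on simulated data. Gene positions are those of the table, strands and overlaps are from GENCODE M21, and promoters are from RefSeq (GRCm38.p6). Beyond the members, genes were named when they passed a comparison (the 4 smallest p-values per list where more passed), when they were a list's extremes in CLT, or when they were the 3 most like a member that spans more than 1. *Furin*, the 5 placode genes that failed the filter and the marker genes were named besides, and 1 marker list is not reported here as a sum. The members and the gene lists were chosen with earlier results of these data known.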

Additional observations from a re-analysis of the deposited data

Results flagged for a closer look

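The cKO effect on *Edaradd* was 0.94 greater in CLT than in CLH on the log2 scale, and the test of that difference passed (adjusted p = 0.0296, limma over 8 libraries), as it did for 17.6% of all genes. The call was lost when any 1 of the 4 CLH or 2 cKO CLT libraries was left out (adjusted p from 0.106 to 0.137). *Edaradd* was higher in both libraries labelled cKO CLT than in both labelled Ctrl CLT, as were 37.2% of all genes tested. The 2 genotypes overlapped for it in CLH.

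*Eda* was lower in both libraries labelled cKO in CLT and higher in both in CLH, without overlap in either tissue, and its effects differed by -0.44 on the log2 scale. The test of that difference did not pass (adjusted p = 0.14), and in CLH the log2 fold change was 0.06 (SE 0.079). Separation in either direction held for 72.2% of all genes tested in CLT and for 38.7% in CLH. The share of all genes separated in opposite directions was not counted.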

How the results depend on the processing

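For the 6 tested members, 504 values were recomputed under the alternatives. Direction and side of the threshold were kept by 455, 23 passed the threshold where they had not, 16 no longer passed and 10 reversed. The reversed log2 fold changes were small ones: in CLH, *Edar* at 0.0092 and 0.0099 under the voom fits and from -0.19 to 0.14 with a library left out, *Edaradd* from -0.12 to 0.023 and *Traf6* from -0.0029 to 0.12; between CLT and CLH in Ctrl, *Edar* from -0.14 to 0.18 and *Traf6* from -0.023 to 0.097 with a library left out; and between CLT and CLH in cKO, *Eda* at 0.034 with median-of-ratios scaling.

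With all 8 libraries in 1 fit, the number of called members moved from 0 to 3 for cKO against Ctrl in CLT, from 0 to 1 for CLT against CLH in Ctrl and from 4 to 2 in cKO. The share of all genes called moved likewise, from 1.75% to 43.7%, from 0.00707% to 5.92% and from 74.0% to 54.1%. With each library left out, the counts ran from 0 to 5 for cKO against Ctrl in CLT, from 0 to 4 for the difference of effects, from 0 to 3 for CLT against CLH in Ctrl and from 2 to 3 in cKO. Such fits of 2 groups hold 3 libraries, and the lone one is assumed to vary like the pair. The share of all genes called also rose in every fit without a Ctrl CLT library. It fell in every fit of CLT against CLH in cKO with a library left out. The counts of called members are therefore not read as specific to the pathway. For the difference of effects, 2 members were called without the filter on low values, beside 11.7% of all genes. With the replicate block 0 members were called, beside 10.2% of all genes, and *Edaradd* had an adjusted p of 0.0554. Under that block the relay and NF-κB lists had 0 called genes, the placode list 2 and the receptors 3.

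Correlations over genes of the replicate differences were -0.19 between the CLT groups, 0.07 between the CLH groups, 0.20 between the Ctrl groups and 0.31 between the cKO groups, so the numbers were not shown to pair the libraries. The block moved all calls in CLT from 248 to 1744 genes. A crossed pairing, added after the data had been seen, gave 9 genes and 0 members. At 22 to 102 reads, *Eda2r* is the member most limited by depth. Counting error alone does not cover the spread between pools.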
